A study of Mus musculus with 16 samples.

Results

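Ephrins, semaphorins and Slits are guidance cues, and Eph receptors, plexins with neuropilins, and Robo proteins receive them. The genes of these families were selected by symbol. A probe set, the group of short oligonucleotides that reads out a transcript on the array, was included when the platform annotation gave it a single symbol of the families Epha/Ephb, Efna/Efnb, Sema3 to Sema7, Plxn, Nrp1 and Nrp2, Slit1 to Slit3 or Robo1 to Robo4. This selected 136 of the 34945 probe sets with a single symbol, which stand for 59 genes: 8 ephrins, 13 Eph receptors, 20 semaphorins, 2 neuropilins, 9 plexins, 3 Slits and 4 Robo receptors. Of these, 54 genes passed the filter on low signals and were tested on all 16 arrays, among 14299 genes in all.

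Guidance cues were first described in growing axons, where they repel or attract the moving cell front by acting on the actin cytoskeleton, mostly through small GTPases. Ephrins and Eph receptors are both bound to the membrane and signal in both directions where cells touch, ephrin-A ligands through a lipid anchor and ephrin-B ligands through a cytoplasmic tail. Class 3 semaphorins and Slits are secreted, whereas the other semaphorins measured here are held at the membrane. In vessels the same families are known for roles in the boundary between arteries and veins, in endothelial sprouting and in the migration of smooth muscle cells.

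The cells were mouse aortic smooth muscle cells in culture, from wild-type or Hey2 knockout animals of a mixed C57BL/6 and 129SvJ background. Hey2 encodes a transcriptional repressor that acts downstream of Notch. The cells came from aortas stripped of adventitia, were used at passage 10 to 20, and had been stained for alpha actin of smooth muscle and for calponin as a check of purity. All cultures were starved for 48 h in 0.4% fetal calf serum and then received human PDGF-BB, a growth factor for smooth muscle cells, at 5 ng/ml. Each genotype had 8 arrays, 1 for each of 0, 15, 30, 60, 120, 180, 240 and 480 min, and no time course without PDGF-BB was analysed here. From how many animals or isolates the cells came is not stated, so that p-values measure the spread between these arrays and a difference between isolates cannot be told apart from one between genotypes.

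Values are MAS5 signals after quantile normalization, and differences are on the scale log2(signal + 4.856). A gene is called when its limma p-value, adjusted by the Benjamini-Hochberg method over all genes tested, is below 0.05. The libraries labelled wild type 60 min and wild type 480 min did not follow the time order of the other arrays. Correlations were taken over all tested genes, on the deviation of each array from the gene's mean within its genotype. The first of these libraries correlated at 0.571 with the knockout 480 min array and at -0.327 with the knockout 60 min array. The second correlated at 0.456 with knockout 60 min and at -0.375 with knockout 480 min. Arrays of the same time correlated at 0.38 to 0.524 at the other 6 times. The Hey2 probe set ranged from 14 to 113 in wild type and from 23.3 to 63.3 in the knockout, but its place relative to the deleted part is not given, so that it does not check the labels. Markers of other cell types differed between the genotypes. All 8 mesothelial markers were called higher in the knockout, with a summed signal of 18000 to 21900 against 2059 to 3576 in wild type, and 9 of 12 smooth muscle markers were called lower, with sums of 16560 to 20120 against 25860 to 30830. Of 7 tested fibroblast markers, Thy1 (3.12), Serpinf1 (2.89), Dpt (2.50) and Dcn (0.56) were called higher and Lum (-3.11) lower. Endothelial marker sums were 86.6 to 174 in wild type and 77.8 to 150 in the knockout, with Cdh5, Erg, Pecam1, Tie1 and Vwf under or near the filter throughout. The part of these differences in the results below was not tested, and fewer cells of a type cannot be told apart from less RNA per cell.

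The first question was which guidance genes differ between Hey2 knockout and wild-type cells over the matched time points. The fit used all 16 arrays with time as a block. Efna2 and Plxna4 were more than 3-fold higher in the knockout, Nrp2 was more than 3-fold lower, and Sema6d and Epha4 were lower by more than 2-fold. In all, 18 of the 54 genes were called, 8 higher and 10 lower. The share called higher was 14.8%, against 16.5% of all genes, and the share called lower was 18.5%, against 14.1% of all genes. The counts of calls were thus near the background of these arrays. The median difference of the 54 genes was 0.03, beside -0.02 for all genes, and the median size of a difference, regardless of sign, was 0.35 beside 0.27. In 4 of the called genes (7.41% of those tested, beside 8.46% of all genes) the genotypes did not overlap. Called genes with the same sign at all 8 times numbered 7 (13%, beside 19.6% of all genes). When the 60 and 480 min arrays were left out, 26 of 51 guidance genes were called, 13 (25.5%) in each direction, beside 21.5% of all genes called higher and 20.9% called lower. With the deposited scaling, which puts the median of all genes at 0.28, 9 were called higher and 3 lower.

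**Figure D1:**
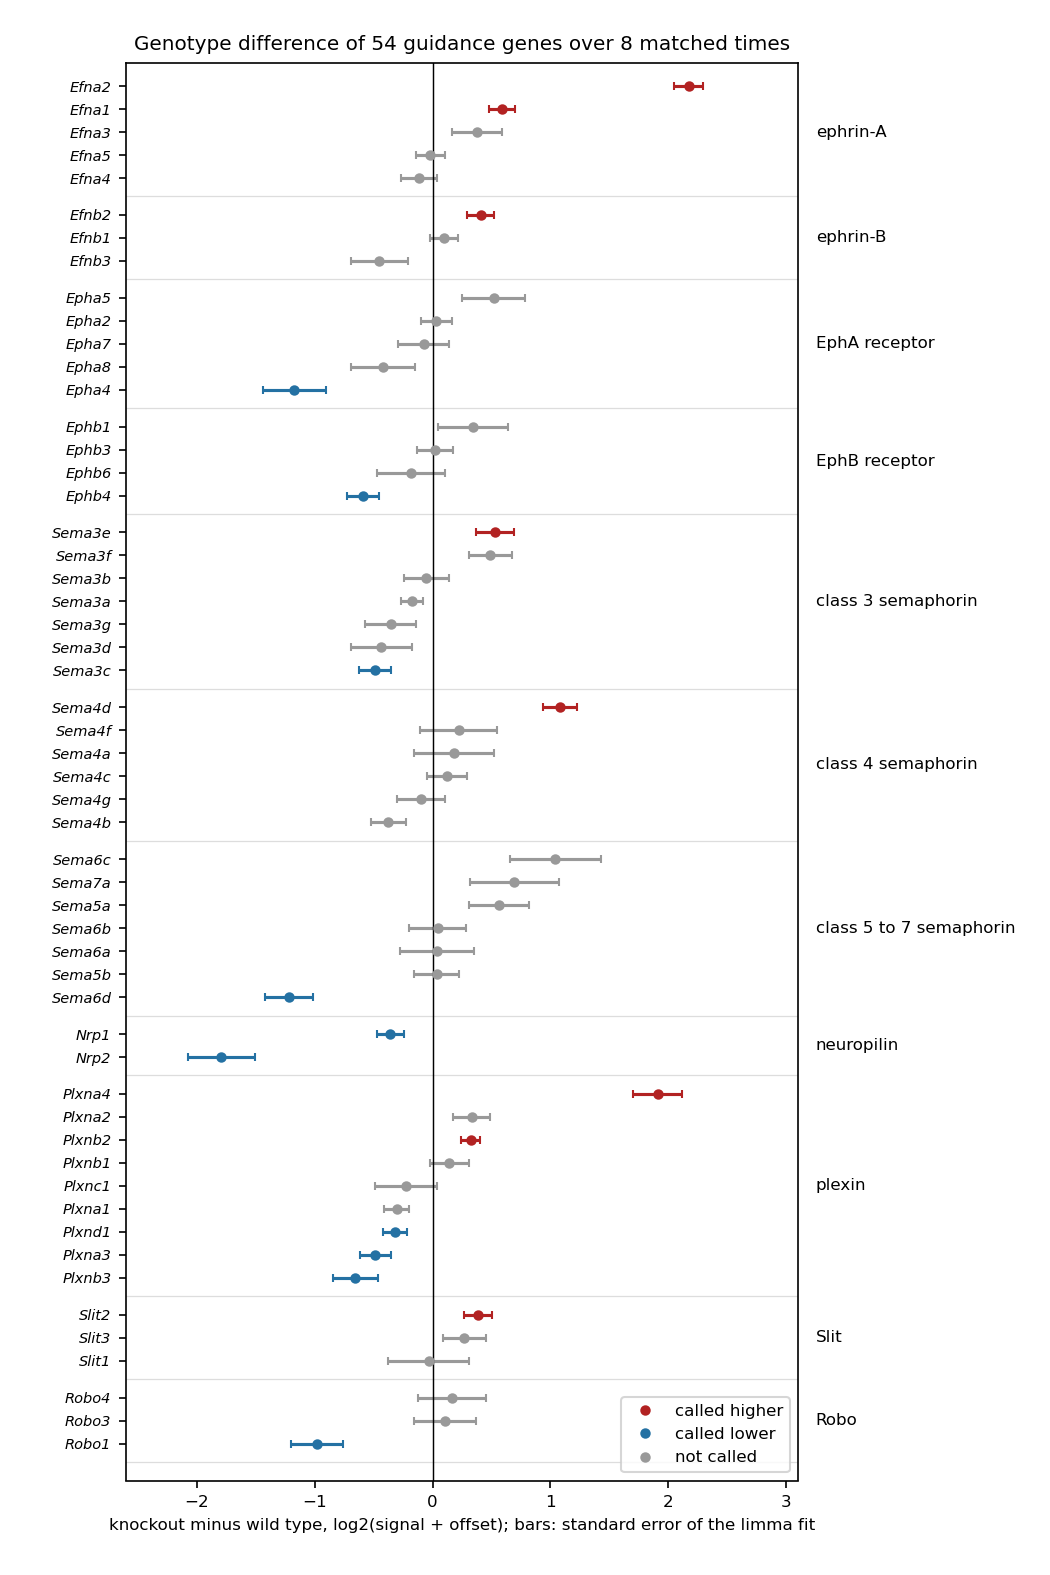
Knockout minus wild-type difference of the 54 tested guidance genes on the log2(signal + offset) scale, grouped by family, with points for the fitted difference over 8 matched times and bars for the standard error of the limma fit. Efna2 (2.17) and Plxna4 (1.91) lie farthest to the right and Nrp2 (-1.79) farthest to the left, and 36 genes in grey were not called.

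All 3 ephrins that were called were higher in the knockout. Efna2, a lipid-anchored ligand of EphA receptors, had signals of 72.1 (lowest), 83.5 (median) and 148 (highest) over the 8 wild-type arrays and of 256, 420 and 738 over the 8 knockout arrays. Every knockout array was above every wild-type array, and the difference of 2.17 (SE 0.13, limma adjusted p = 5.97e-07) was a 4.5-fold higher level. The second Efna2 probe set was also called higher, by 1.24. Efna1, the preferred partner of Epha2, had signals of 57.1, 74.4 and 98.4 in wild type and of 78.5, 115 and 142 in the knockout. The ranges overlapped, but the knockout was higher at all 8 times, by 0.59 (SE 0.11, limma adjusted p = 0.00202). A dimmer Efna1 probe set differed by 0.39 and was not called (limma adjusted p = 0.456). Efnb2, the ephrin that marks arterial vessels and binds Ephb4, had signals of 1664, 2175 and 3355 in wild type and of 2509, 3090 and 3701 in the knockout. Its difference of 0.41 (limma adjusted p = 0.0196) was present at 7 of 8 times and was lost when the 0, the 15 or the 30 min arrays were left out (adjusted p up to 0.0566). The other ephrins were not called, with differences from -0.45 for Efnb3 to 0.38 for Efna3.

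Of the 9 Eph receptors tested, 2 were called, both lower in the knockout. Epha4, a receptor that accepts ephrins of both classes, had signals of 310, 583 and 1147 in wild type and of 113, 219 and 528 in the knockout. It was lower at 7 of 8 times, the exception being 480 min, and the difference was -1.17 (SE 0.27, limma adjusted p = 0.00657). A further 2 of its 4 tested probe sets were also called lower, by 1.09 and 0.91 in size. Ephb4, the receptor of Efnb2 that marks veins, had signals of 60.5, 87.6 and 113 in wild type and of 38.7, 56.7 and 80.4 in the knockout. It was lower at 7 of 8 times by a difference of -0.59 (SE 0.14, limma adjusted p = 0.0076), and the ranges overlapped. Over the 8 times Efnb2 was thus called higher and its receptor Ephb4 lower. Efnb2 was called at 0 to 30 min and not at 120 to 240 min, and Ephb4 the other way round. The Ephb4 differences were of similar size in both windows, however. They were -0.425, -0.885 and -0.526 at 0, 15 and 30 min and -0.581, -0.323 and -1.139 at 120, 180 and 240 min. A change of the Ephb4 difference between the windows was not called (-0.07, limma adjusted p = 0.968 over all tested probe sets). With the deposited scaling Ephb4 was at -0.27 and not called (limma adjusted p = 0.616). Epha2, Epha5, Epha7 and Epha8 were not called, with differences from -0.42 to 0.52, nor were Ephb1, Ephb3 and Ephb6, from -0.18 to 0.34.

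Among the 20 semaphorins, Sema4d and Sema3e were called higher and Sema6d and Sema3c lower. Sema4d, a membrane-bound ligand of plexin-B receptors, had signals of 29.1, 57.9 and 96.8 in wild type and of 102, 119 and 150 in the knockout. No knockout array fell into the wild-type range, and the difference was 1.08 (SE 0.15, limma adjusted p = 2.39e-04), a 2.12-fold higher level. Its other probe sets had 1 array each above the filter and were not tested, so that the size rests on a single probe set. Sema6d, a transmembrane semaphorin that binds plexin-A receptors, had signals of 900, 1645 and 3065 in wild type and of 332, 732 and 1229 in the knockout. It was lower in the knockout at all 8 times although the ranges overlapped, by a difference of -1.21 (SE 0.20, limma adjusted p = 0.00104), and 1 of its 3 other tested probe sets was called, at -1.09. At 60 min the Sema6d signals were close, 973 in the library labelled wild type and 954 in the knockout. Sema3e, which binds Plxnd1 without a neuropilin, was 0.53 higher (limma adjusted p = 0.0271), and Sema3c, known for its part in the cardiac outflow tract, was -0.49 from wild type (limma adjusted p = 0.0187). Both lost the call when certain times were left out, Sema3e without 0, 30 or 120 min (adjusted p up to 0.0754) and Sema3c without 15 or 180 min (up to 0.0522). Another Sema3e probe set was also called higher (0.61), while those at 0.08 and 0.74 were not called. Of the 16 semaphorins not called, Sema6c had the largest difference, 1.04 (SE 0.39, limma adjusted p = 0.0634), with knockout signals spread from 26.7 to 300.3. Probe sets other than the brightest were called lower for Sema3a (-0.56) and Sema3d (-0.71), whose brightest probe sets, at -0.17 and -0.44, were not.

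Both neuropilins, the co-receptors of class 3 semaphorins and of VEGF, were called lower in the knockout. Nrp2, which binds Sema3f and the lymphatic growth factor VEGF-C, had signals of 127, 392 and 595 in wild type and of 67.3, 84.2 and 117 in the knockout. The genotypes did not overlap, and the difference was -1.79 (SE 0.28, limma adjusted p = 6.97e-04), a 3.46-fold higher level in wild type. All 4 tested Nrp2 probe sets were called lower, at -1.79, -1.24, -1.18 and -1.15. Nrp1, the receptor of Sema3a, differed by only -0.36 (limma adjusted p = 0.0321), with signals of 3330 to 5365 in wild type and of 1924 to 4012 in the knockout. Its call was lost in 6 of 8 fits that left out 1 time, with adjusted p up to 0.0728, without the intensity trend and without the block. With the deposited scaling the Nrp1 difference was -0.0079.

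Plexins, the signalling receptors of semaphorins, were divided, with 2 called higher, 3 called lower and 4 not called. Plxna4 had signals of 35.2, 68.6 and 122 in wild type and of 163, 288 and 348 in the knockout. The ranges were apart, and the difference was 1.91 (SE 0.21, limma adjusted p = 5.64e-05), a 3.75-fold higher level. The second Plxna4 probe set differed by 0.40 and was not called (limma adjusted p = 0.133), so that the size rests on a single probe set. A probe set of Plxna2 other than its brightest was called higher (0.50). Plxnb2, a receptor of class 4 semaphorins, was higher at all 8 times by only 0.32 (limma adjusted p = 0.00915). Plxnb3 had signals of 34.9, 50.6 and 65.4 in wild type and of 7.35, 30.6 and 55.9 in the knockout. It was lower at 6 of 8 times, with a difference of -0.65 (SE 0.19, limma adjusted p = 0.025) that was lost without 0, 15, 30 or 240 min (adjusted p up to 0.0592). Plxna3 (-0.48) and Plxnd1, the receptor of Sema3e (-0.32), were also called lower. With the deposited scaling neither was called, Plxna3 being at -0.14 and Plxnd1 at 0.0031. A second Plxna3 probe set, at -0.13, was not called. The Plxnd1 call was lost in 7 of 8 fits that left out 1 time, with adjusted p up to 0.0987.

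In the Slit and Robo family, Slit2 was called higher and Robo1 lower in the knockout. Slit2, a secreted ligand, had signals of 1112, 1703 and 2085 in wild type and of 1557, 2225 and 2591 in the knockout. The difference of 0.38 (limma adjusted p = 0.0295) was present at 7 of 8 times and was lost in 6 of 8 fits that left out 1 time (adjusted p up to 0.077). Robo1, its receptor, had signals of 10.6, 28.9 and 42.1 in wild type and of 9.1, 11.2 and 13.0 in the knockout. All 8 knockout arrays were below the filter signal of 16, whereas 7 of 8 wild-type arrays were above it, the exception being the library labelled wild type 60 min. Robo1 therefore entered the test only through wild type, and the size of its difference, -0.98 (SE 0.22, limma adjusted p = 0.00637), depends on the offset in the logarithm. Slit1, Slit3, Robo3 and the endothelial receptor Robo4 were not called, with differences from -0.03 to 0.27.

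**Figure D2:**
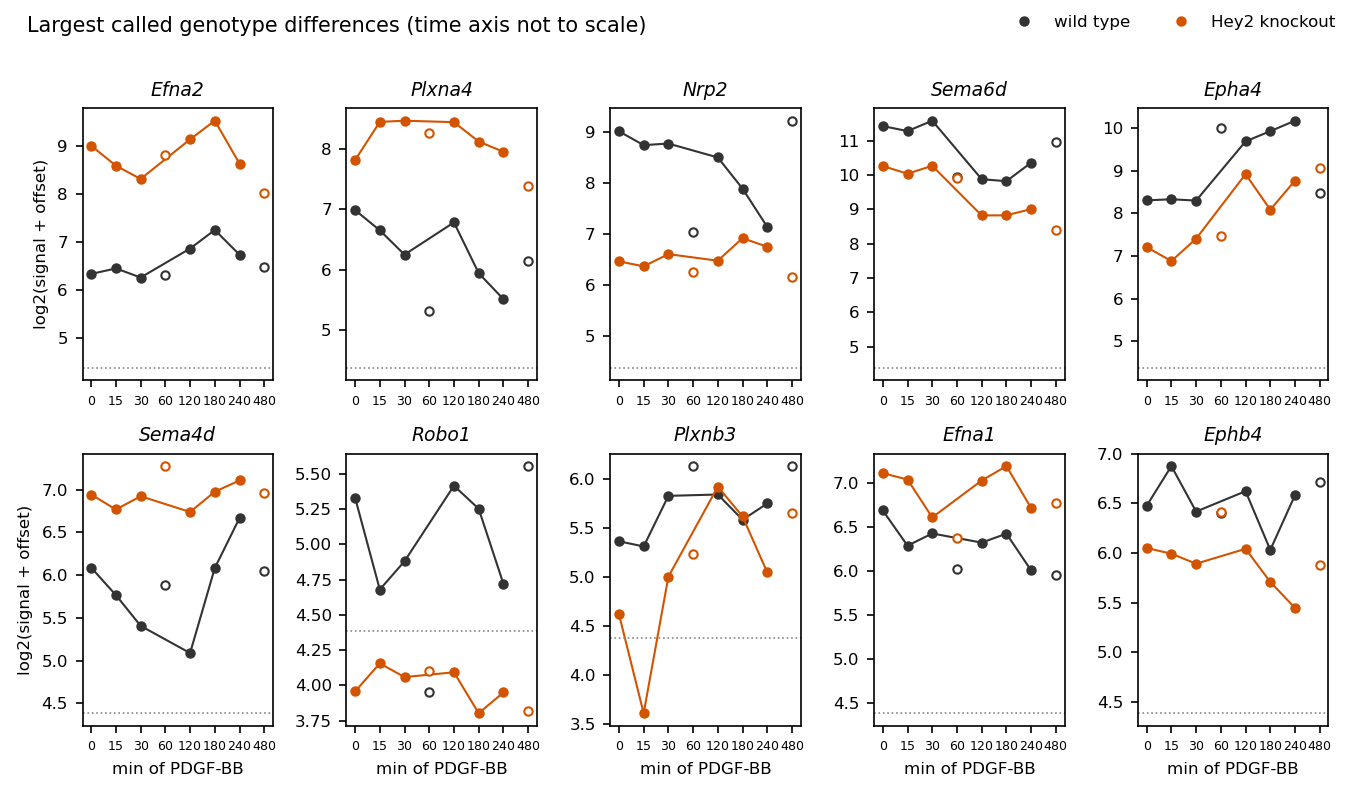
Signals of the 10 called guidance genes with the largest genotype difference, on the log2(signal + offset) scale, against minutes of PDGF-BB at equal spacing, 1 point per array, in wild type (dark) and Hey2 knockout (orange). Open circles are the 60 and 480 min arrays and the dotted line is the filter signal of 16; Efna2, Plxna4, Sema4d and Nrp2 show no overlap between genotypes.

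The genotype difference was then read in 2 windows of 3 arrays per genotype, 0 to 30 min (early) and 120 to 240 min (late), without the 60 and 480 min arrays. On these 12 arrays 51 guidance genes were tested among 13913, since Sema6a, Sema6b and Robo4 no longer passed the filter. In the early window 18 genes were called between genotypes (35.3%, beside 26.7% of all genes), and in the late window 14 (27.5%, beside 26.7% of all genes). In both windows and in the same direction 10 genes were called (19.6%, beside 16.9% of all genes), namely Efna2, Plxna4, Sema4d and Slit2 as higher and Nrp2, Sema6d, Epha4, Sema3c, Plxna3 and Robo1 as lower. Efna2 was 2.29 higher in the early and 2.15 higher in the late window, and Plxna4 1.61 and 2.09 higher. The Nrp2 difference was -2.37 early and -1.13 late. In wild type, Nrp2 signals were 515, 426 and 435 at 0, 15 and 30 min and 359, 234 and 137 at 120, 180 and 240 min, whereas those of the knockout stayed between 78.0 and 117. The test of that change in difference did not pass (1.24, limma adjusted p = 0.178). Sema3d, Sema3e, Sema3f, Sema4b, Sema6c, Sema7a, Efnb2 and Plxnb3 were called in the early window but not the late, and Sema4c, Ephb4, Efna1 and Plxnb2 in the late but not the early. Only for Sema7a and Efnb2 did the difference between windows pass its own test.

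The second question was how guidance genes change with time in PDGF-BB, read as the late minus the early window over both genotypes. Sema4f and Sema7a rose almost 6-fold, Epha4 and Epha2 by more than 2-fold, and Sema6d fell by more than 2-fold. In all, 21 of the 51 genes were called. The 10 that rose were 19.6% of the genes tested, beside 17.7% of all genes, and the 11 that fell were 21.6%, beside 26.9% of all genes. The median change was -0.10, beside -0.07 for all genes, and its median size regardless of sign was 0.35 beside 0.31. Within wild type 17 of the 51 were called, a smaller share than the 38.3% of all genes. Within the knockout 14 of the 51 were called, a larger share than the 19.9% of all genes. The ratio of 3' to 5' signal of Actb, a measure of RNA integrity, also moved with the window, from 2.41 to 3.88 early to 1.53 to 1.84 late in wild type and from 1.95 to 3.71 early to 1.54 to 2.44 late in the knockout. Marker sums moved with the window as well, from 82.9 to 142 early to 207 to 791 late for leukocyte markers, of which Csf1r rose by 2.96 while Cd3e, Itgam and Ptprc were under or near the filter throughout. Fibroblast sums went from 7584 to 11390 early to 5644 to 7519 late, with 4 of 7 markers called as falling, and Schwann and neural sums from 206 to 265 early to 265 to 385 late, with Tubb3 rising by 0.85. Of 12 smooth muscle markers, 7 were called as rising, among them Cnn1 by 2.02 and Actg2 by 1.75, and 1 as falling. Of 8 mesothelial markers, 1 was called as rising, Krt19 by 1.88, and 3 as falling. The part of these measures in the changes was not tested. With the 60 and 480 min arrays added to the windows, 10 genes were called, and with the deposited scaling, which puts the median of all genes at 0.15, 6 rose and 1 fell.

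Semaphorins gave the largest rises. Sema4f, a membrane-bound class 4 semaphorin, had signals of 41.0, 57.6 and 60.8 at 0, 15 and 30 min and of 176, 483 and 471 at 120, 180 and 240 min in wild type. In the knockout the same times gave 59.6, 80.3 and 60.9, and then 206, 587 and 565. Late and early arrays were apart in both genotypes, and the change of 2.57 (SE 0.28, limma adjusted p = 8.09e-06) was a 5.94-fold rise. The second Sema4f probe set rose by 1.82. Sema4b, of the same class, went from 229, 239 and 281 to 419, 516 and 511 in wild type and from 124, 193 and 188 to 522, 479 and 329 in the knockout. Each late array was above each early array of its genotype, with a change of 1.15 (SE 0.14, limma adjusted p = 1.99e-05). Sema4c fell by 0.31 on the log2 scale, with an adjusted p of 0.0455 in limma that passed the threshold in 3 of 12 fits without 1 array.

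Sema7a, a lipid-anchored semaphorin that binds Plxnc1 and integrins, had wild-type signals of 56.5, 46.6 and 60.3 early and of 480, 719 and 664 late. Knockout signals were 173, 201 and 177 early and 584, 748 and 532 late. These values rest on a single probe set, since the other had 2 arrays above the filter and was not tested. Early arrays of the knockout lay above those of wild type, while the late arrays of the genotypes overlapped. Sema7a thus rose by 3.39 in wild type and by 1.72 in the knockout, and the difference of these changes was -1.67 (SE 0.25, limma adjusted p = 0.0119). The knockout was 1.67 higher early and 0.01 higher late. The library labelled wild type 60 min had a Sema7a signal of 526 and that labelled wild type 480 min one of 103, against 169 and 462 in the knockout. Adding those 4 arrays, with 60 min as early and 480 min as late, moved the difference of the changes to -0.32 (limma adjusted p = 0.958).

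Eph receptors and ephrins changed in both directions. Of the EphA receptors not called, Epha7 had a dimmer probe set that fell by 0.76 (limma adjusted p = 0.0184). Epha4, which was lower in the knockout, rose in both genotypes. Its wild-type signals were 311, 317 and 310 early and 818, 967 and 1147 late, and its knockout signals were 143, 113 and 165 early and 479, 267 and 431 late. The change over both was 1.52 (SE 0.14, limma adjusted p = 2.10e-06), and the knockout was lower in each window. Epha2, the receptor of Efna1, went from 246, 245 and 419 to 1130, 727 and 1006 in wild type and from 285, 323 and 556 to 767, 773 and 923 in the knockout. At 30 min Epha2 was already the highest of the early arrays in both genotypes, and the change was 1.40 (SE 0.18, limma adjusted p = 3.25e-05). Ephb3 fell by 0.73 on the log2 scale (limma adjusted p = 0.001), with a fall of 1.20 in wild type and a change of -0.25 in the knockout that was not called. The difference between these was not called either (0.95, limma adjusted p = 0.197). Ephb3 was at -0.41 with the deposited scaling and -0.47 with the 60 and 480 min arrays added, neither of them called.

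Of the ephrins, Efnb2 and Efna2 rose, and Efna4 and Efna5 fell. Efnb2 had signals of 1814, 1801 and 1664 early and 3078, 3211 and 3355 late in wild type, and of 2726, 2868 and 2861 early and 3701, 3312 and 3402 late in the knockout. Wild type started below the knockout and reached it, so that the rise was 0.87 in wild type and 0.30 in the knockout. The difference of these changes was -0.57 (SE 0.10, limma adjusted p = 0.0185). It was lost without wild type 15 or 180 min or knockout 15, 30 or 180 min (adjusted p up to 0.0644), and was -0.19 with the 60 and 480 min arrays added (limma adjusted p = 0.874). Other Efnb2 probe sets did not pass this test, the next brightest giving -0.38. Sema7a and Efnb2 were the 2 guidance genes called for a different change in the genotypes (3.92% of those tested, beside 0.776% of all genes). Efna4 fell by 0.82 and Efna5 by 0.48 on the log2 scale (limma adjusted p = 0.00213 and 4.05e-05), and Efna2 rose by 0.53 (limma adjusted p = 0.0148). The Efna2 change was 0.32 and not called with the 60 and 480 min arrays added, and none of these 3 changes was called with the deposited scaling or against 0 min alone.

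**Figure D3:**
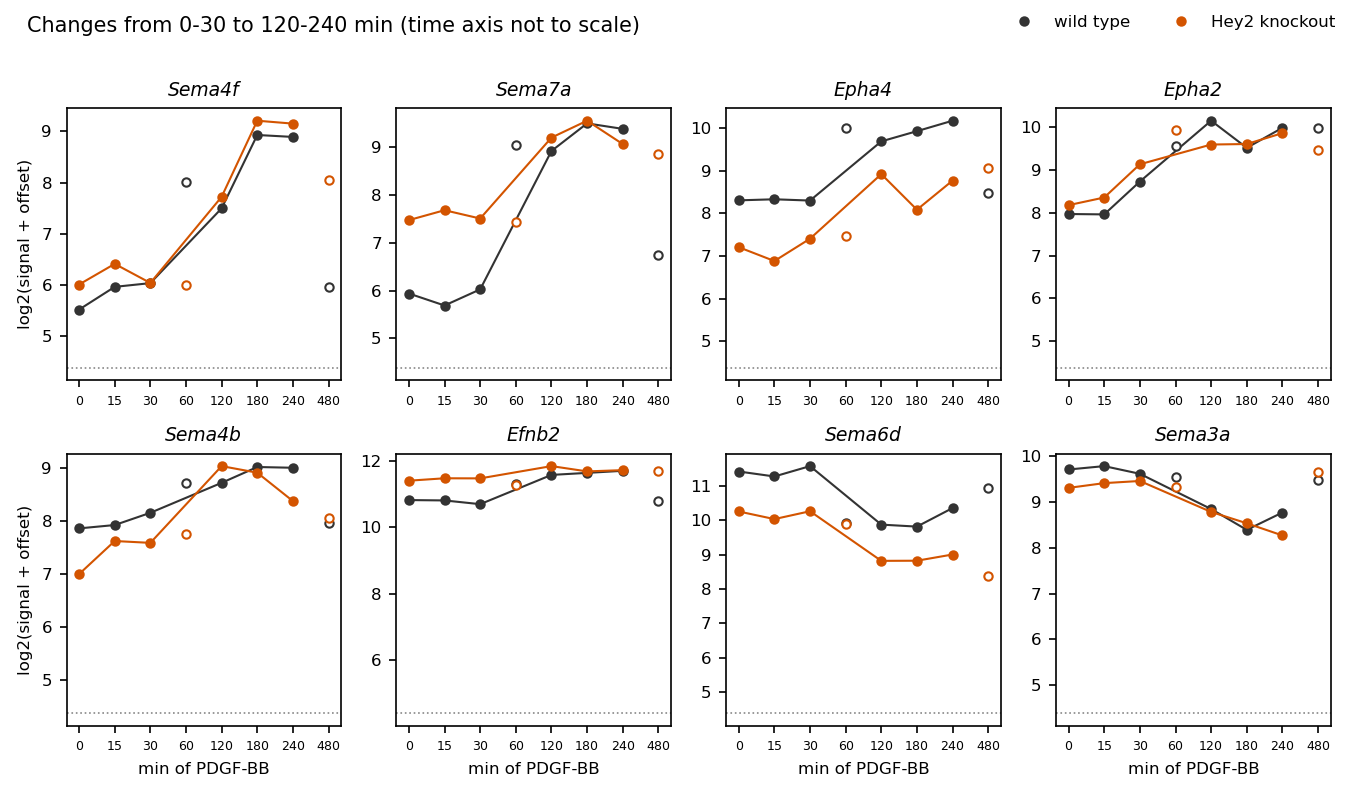
Signals of 8 guidance genes that changed from the early to the late window, on the log2(signal + offset) scale, against minutes of PDGF-BB at equal spacing, 1 point per array, with wild type dark and Hey2 knockout orange. Open circles are the 60 and 480 min arrays, which the window test leaves out. Sema7a and Efnb2 start apart in the genotypes and lie close at 120 to 240 min. Their 480 min arrays are again apart, but the libraries labelled wild type 60 and 480 min did not follow the time order. At 60 min Sema7a is higher in wild type, with a signal of 526 against 169.

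Sema6d fell most. Its wild-type signals were 2749, 2485 and 3065 early and 937, 900 and 1311 late, and its knockout signals were 1223, 1048 and 1229 early and 448, 449 and 510 late. The change was -1.36 (SE 0.10, limma adjusted p = 1.64e-07), of -1.41 in wild type and -1.30 in the knockout, on top of the lower level in the knockout. The secreted semaphorins that were called fell as well. Sema3a, which repels cells through Nrp1 and plexin-A receptors, fell by 0.95 on the log2 scale (limma adjusted p = 7.59e-06), Sema3d by 0.51 and Sema3c by 0.26. None of these 3 was called with the deposited scaling, nor Sema3c and Sema3d with the 60 and 480 min arrays added. On their brightest probe sets none of the 7 class 3 semaphorins was called as rising, but another Sema3e probe set rose by 0.75 (limma adjusted p = 0.0326).

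Of the receptors for semaphorins, 2 plexins and Nrp1 rose and 2 plexins fell. Plxnd1 rose by 0.71 (SE 0.11, limma adjusted p = 1.13e-04), by 0.69 in wild type and 0.73 in the knockout, and Plxnb3 by 0.67 and Nrp1 by 0.34, with adjusted p of 0.0342 and 0.0456 in limma. The Plxnb3 call was lost in 7 and the Nrp1 call in 9 of 12 fits without 1 array. The Plxnd1 call held in these fits but was lost with the deposited scaling (0.84, limma adjusted p = 0.0849). It was also lost with the 60 and 480 min arrays added (0.44, limma adjusted p = 0.0618). Plxnb2 fell by 0.31 (limma adjusted p = 8.09e-04), but was at 0.04 with the deposited scaling and lost its call with the 60 and 480 min arrays added. Plxna2 fell by 0.42 on its brightest probe set (limma adjusted p = 0.0497), while another of its probe sets was called as rising, by 0.45, so that its direction is uncertain. The brightest Plxnb1 probe set was not called (-0.22), but a second one of similar brightness fell by 1.18 (limma adjusted p = 4.87e-05). Nrp2 was not called over both genotypes (-0.38, limma adjusted p = 0.107), although it fell by 1.0 on the log2 scale in wild type (limma adjusted p = 0.0075). Slit2 fell by 0.44 (limma adjusted p = 3.48e-05). Its change was not called at -0.08 with the deposited scaling, at -0.29 with the 60 and 480 min arrays added, or against 0 min alone. Neither Slit1, Slit3, Robo1 nor Robo3 was called late minus early.

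**Figure D4:**
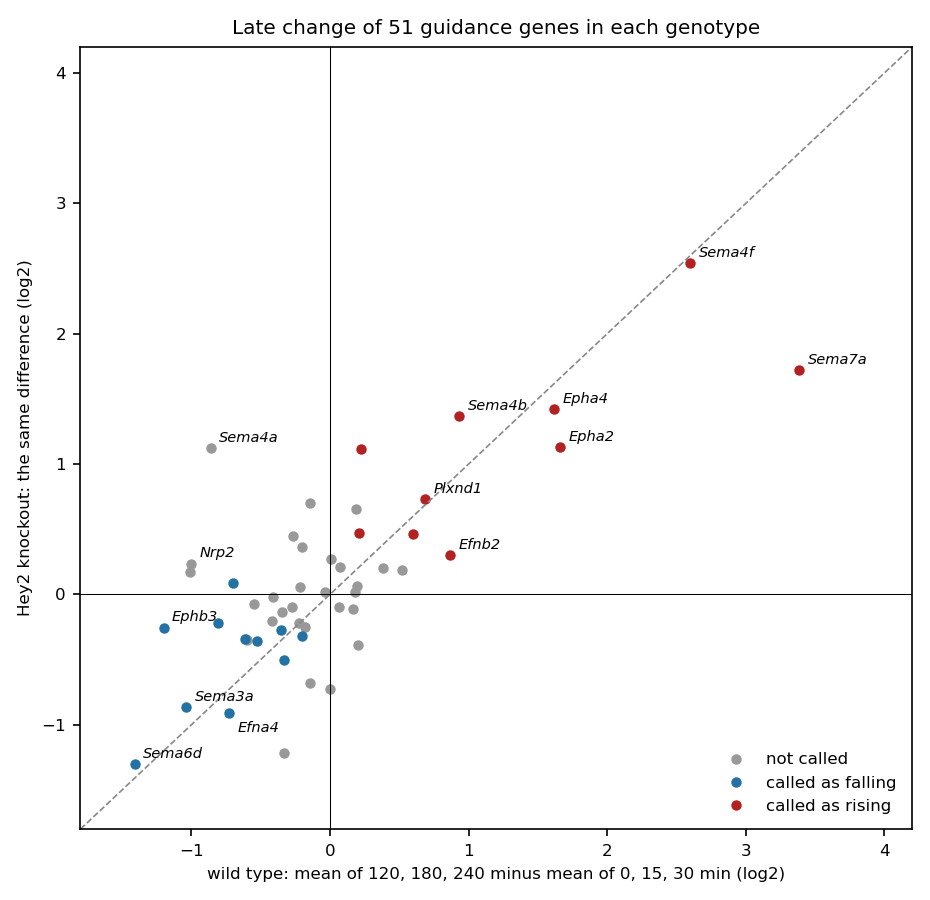
Change from the early (0, 15, 30 min) to the late (120, 180, 240 min) window of 51 guidance genes, in log2 units, with wild type on the horizontal and Hey2 knockout on the vertical axis, 1 point per gene. Colours show genes called over both genotypes, and the dashed line marks equal change; Sema7a (3.39 and 1.72) lies farthest below it.

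In both comparisons 10 genes were called (18.5%, beside 15.7% of all genes). In neither comparison 25 were called (46.3%, beside 41.6% of all genes), 3 of which were tested between genotypes only. The genes called in both comparisons included some with opposite signs. Epha4, Plxnb3, Plxnd1 and Nrp1 were lower in the knockout and rose with time, and Plxnb2 and Slit2 were higher in the knockout and fell with time. Efna2 and Efnb2 were higher and rose, and Sema6d and Sema3c were lower and fell. Dim genes made up much of the rest. Epha8, Sema6a, Sema6b, Sema5b, Sema3g, Sema4a, Plxnc1, Ephb1 and Robo4 each had a median signal under 20 in both genotypes. Epha1, Epha3, Epha6, Epha10 and Robo2 were not tested, with at most 2 arrays above the filter on any probe set. Epha8 and Robo1 passed only through wild-type arrays and Robo4 only through knockout arrays.

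Partners of the families were read from 4 lists, beside which stand the 16.5% of all genes called higher and 14.1% called lower in the knockout, and the 17.7% that rose and 26.9% that fell with time. Of 27 tested genes that act with Eph receptors, 2 were called higher and 8 lower in the knockout, and 9 rose and 6 fell with time. Grb10, an adaptor that binds receptor tyrosine kinases, was -3.71 from wild type (limma adjusted p = 8.67e-09), Inppl1, a lipid phosphatase known as SHIP2, was -0.90, and Chn2, a chimaerin that inactivates Rac, was -1.08. Inppl1 also rose with time, by 1.07, whereas the kinase Abl1 fell by 0.92. Of 44 tested semaphorin partners, 4 were higher and 9 lower, and 13 of 43 rose and 11 fell. Mical1, an enzyme that oxidises actin downstream of plexins, was -1.37 from wild type, the neuropilin-binding adhesion protein Chl1 -3.98 and the small GTPase Rap1b -0.33. Vegfa, the neuropilin ligand, rose by 1.60 and the GTPase Rras2 by 0.84.

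Among 24 tested Slit and Robo partners, 5 were higher and 5 lower in the knockout, and 8 rose and 8 fell with time. Enah, an actin regulator of the Ena/VASP family, was -1.60 from wild type (limma adjusted p = 9.11e-08) and rose by 1.08. Flrt1, of a family of membrane proteins that bind Unc5 and Robo receptors, was 2.74 higher, and Srgap3, a GTPase-activating protein that binds Robo, was -0.69. Flrt2 fell by 1.68 with time. Of 27 tested genes of netrin and other guidance systems, 4 were higher and 5 lower in the knockout, and 2 of 26 rose and 6 fell. Ntn1, the ligand netrin-1, was -2.0 from wild type, the actin-binding Nexn -1.40 and Rgmb, a co-receptor for BMP ligands, -0.81. Cxcl12 fell by 0.36 and Cdon, a Hedgehog co-receptor of the immunoglobulin family, by 1.23 with time.

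HEY proteins bind E-box and related motifs, so the start regions of the genes were searched for CACGTG and CACGCG on both strands. RefSeq promoters of assembly GRCm38.p6, from 250 bases before to 50 after a start, were at hand for 47 of the tested guidance genes, with 61 starts, and Plxna4 had no entry. Of these promoters 19.7% held either motif, against 15.4% of all 32851 promoters. For CACGTG the shares were 6.56% and 7.15%, and for CACGCG 14.8% and 9.27%. A match was found in 1 of 11 promoters of genes called higher in the knockout, that of Sema3e, and in 3 of 11 promoters of genes called lower, those of Sema3c, Sema6d and Nrp1. Of 39 promoters of guidance genes not called between genotypes, 8 (20.5%) held a match, beside 9.09% for genes called higher and 27.3% for those called lower. The 200 bases before the start are given for 4 called genes, 5′ to 3′ on the strand of the gene, with motif matches in capitals. These do not stand for the share of matches among the members. Nrp2, Epha4 and Sema4d, not printed, had no match. Sema6d, on the plus strand at chr2:124089769-124089968, has CACGTG 23 bases before the start. The other Sema6d start has no match. Nrp1, at chr8:128358873-128359072, has CACGCG, and Sema7a, at chr9:57939912-57940111, has the same motif on the other strand, both 166 bases before the start. Efna2, at chr10:80179282-80179481, has no match to either in this window. These 3 genes are also on the plus strand.
Sema6d: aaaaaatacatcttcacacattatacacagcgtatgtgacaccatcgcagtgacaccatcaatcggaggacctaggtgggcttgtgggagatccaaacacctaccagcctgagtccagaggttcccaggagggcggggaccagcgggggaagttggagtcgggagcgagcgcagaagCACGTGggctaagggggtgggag
Nrp1: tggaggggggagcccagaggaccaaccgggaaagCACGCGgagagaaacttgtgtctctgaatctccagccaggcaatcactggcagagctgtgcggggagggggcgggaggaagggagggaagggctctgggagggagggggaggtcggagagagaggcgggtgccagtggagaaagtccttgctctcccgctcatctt
Sema7a: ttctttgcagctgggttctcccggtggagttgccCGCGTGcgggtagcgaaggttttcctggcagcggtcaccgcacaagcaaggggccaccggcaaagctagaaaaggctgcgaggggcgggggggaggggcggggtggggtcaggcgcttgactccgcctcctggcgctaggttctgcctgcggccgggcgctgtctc
Efna2: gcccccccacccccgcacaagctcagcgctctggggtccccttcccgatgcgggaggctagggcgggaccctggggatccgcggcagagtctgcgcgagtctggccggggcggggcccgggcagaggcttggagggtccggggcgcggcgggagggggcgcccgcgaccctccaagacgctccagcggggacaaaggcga
A match is a description of these letters and says nothing of binding, which was not measured.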

How the data were processed

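RNA from 16 cultures was read on Affymetrix arrays, 1 per genotype and time. The authors deposited MAS5 signal intensities on a linear scale, with MAS5 named in the submitters' processing notes (version and scaling target: not given in the sources used here). Their 2% trimmed means ran from 81.0 to 342.5, so the arrays were quantile normalized, whereas the plan had kept the deposited scaling, now an alternative. The analysis scale is log2(signal + 4.856). This offset, the 20th percentile of the normalized signals, shrinks differences of dim genes. Tests were limited to probe sets with 3 or more arrays above a signal of 16, the 40th percentile.

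The platform annotation gives 34945 of the 45101 probe sets a single symbol, 932 more than that and 9160 none (64 are controls). A gene's brightest probe set among those tested stood for it, and all 54 tested members matched a RefSeq gene of GRCm38.p6, with 0 symbols changed. Limma 3.58.1 in R 4.3.3 was used with a trend of variance on intensity, and p-values were adjusted over all genes by the Benjamini-Hochberg method. The genotype fit had time as a factor and 7 residual degrees of freedom. Time pairs the genotypes because the labels give both the same time points and the series description says they were treated in parallel. Each time thus forms a block, although arrays of the same time correlated at -0.327 at 60 min and at -0.375 at 480 min. The window fit had 4 groups of 3 arrays and 8 residual degrees of freedom. Within a genotype the 8 arrays differ in time, so their values are given as lowest, median and highest without a standard deviation, and their number limits the precision. The fits were tested on simulated data.

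Named genes were the 10 called members with the largest genotype difference, the 6 with the largest late change, up to 4 called for the interaction, other called members with their difference, and per partner list up to 3 (genotype) and 2 (time) called genes with the smallest p. The members and lists were chosen with earlier results of these data known. Alternatives were the scaling, offset, filter, probe set choice, intensity trend, block, fold threshold, windows and leaving out times or arrays.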

Additional observations from a re-analysis of the deposited data

Results flagged for a closer look

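In 2 guidance genes the change from 0 to 30 min to 120 to 240 min of PDGF-BB differed between the genotypes by the test of the interaction itself. The change of Sema7a in the knockout minus that in wild type was -1.67 on the log2 scale (limma adjusted p = 0.0119), with early signals of 46.6 to 60.3 in wild type and 173 to 201 in the knockout and late signals of 480 to 719 and 532 to 748. The call for Sema7a held in all 12 fits that left out 1 array, with adjusted p from 0.00157 to 0.0437. It was lost with the deposited scaling (-1.62, adjusted p = 1), without the intensity trend (adjusted p = 0.0548) and with the 60 and 480 min arrays added (-0.32, adjusted p = 0.958). For Efnb2 the value was -0.57 (limma adjusted p = 0.0185), with early signals of 1664 to 1814 and 2726 to 2868 and late signals of 3078 to 3355 and 3312 to 3701. The Efnb2 call was lost in 5 of 12 such fits, with adjusted p from 0.00747 to 0.0644, and under the same 3 settings (adjusted p = 1, 0.113 and 0.874).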

How the results depend on the processing

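Of 845 values of single called members recomputed under other settings, 690 kept direction and call, 153 lost the call and 2 changed sign, both with the deposited scaling: Plxnb2 late minus early to 0.0443 and Plxnd1 between genotypes to 0.0031. With it the median over all genes was 0.28 between genotypes and 0.15 late minus early. Of the genes called, 87.9% were higher in the knockout instead of 54%, and 78.1% instead of 39.7% were higher late. The genotype calls of Efna2, Plxna4, Nrp2, Sema6d, Epha4 and Sema4d and the late calls of Sema4f, Sema7a, Epha2, Sema4b and Sema6d held under every setting run.

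Between genotypes, 4381 genes and 18 members were called. With the deposited scaling 2141 genes and 12 members were called, 9 higher and 3 lower. At a 2-fold threshold 1003 genes and 6 members were called, 3 higher and 3 lower. Without 60 and 480 min 5893 genes and 26 members were called, 13 higher and 13 lower. With no replicate block, that is without matching the times, 3628 genes and 14 members were called, 7 in each direction. Leaving out 1 time gave 5 to 11 higher and 6 to 12 lower members, the lowest without 0 or 30 min and without 15 min.

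Late minus early, 6204 genes and 21 members were called. The deposited scaling gave 1266 genes and 7 members (6 rose, 1 fell), the added 60 and 480 min arrays 2398 genes and 10 members (6 rose, 4 fell), and 0 min alone as early 1549 genes and 7 members (5 rose, 2 fell). Scaling to a single trimmed mean gave 17 that fell. The interaction called 0 members with the deposited scaling, with no intensity trend or with 60 and 480 min added, and 1 to 4 without 1 array. The causes were not tested. Signals near the filter limit what can be said of dim members.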
